A study of Mus musculus with 12 samples.

Results

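The 10 genes described here encode enzymes that build the membrane phospholipids of the liver: Chka, Chkb, Etnk1, Pcyt1a, Pcyt2, Chpt1, Cept1, Pemt, Ptdss1 and Ptdss2. They were found by symbol in the platform annotation of the array, which gave 32 of the 34945 probe sets that carry 1 gene symbol (45101 probe sets in all). Between 1 and 9 probe sets measured each gene, 27 of the 32 passed the filter on dim probe sets, and all 10 genes were among the 14568 genes tested. Each gene is represented by its brightest probe set unless another is named.

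The study profiled whole livers of C57Bl/6J mice aged 3 months, either with Ire1α, the endoplasmic reticulum (ER) stress sensor encoded by Ern1, removed as a conditional null (titled Fe-CRE+) or with it kept (control, titled Fe+CRE+), so both genotypes carry the Cre label. The 4 groups were null livers with tunicamycin, null livers with vehicle, control livers with tunicamycin and control livers with vehicle, each with 3 biological replicates on 1 array apiece. Tunicamycin, an inhibitor of N-linked glycosylation that causes ER stress, was injected intraperitoneally at 2 µg per g of body weight, and vehicle animals received dextrose by the same route. Livers were taken 8 hours after injection. The promoter that drives Cre, the cells it acts in and the deleted part of Ern1 were not stated in the sources used here. In whole tissue, fewer cells of a type and less RNA per cell cannot be told apart, and precision is limited by having 3 arrays a group.

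Phosphatidylcholine is the most abundant phospholipid of mammalian membranes, of bile and of the lipoprotein coat. In the Kennedy pathway choline or ethanolamine is phosphorylated by a kinase, activated to a CDP-linked intermediate by a cytidylyl transferase, and joined to diacylglycerol by a phosphotransferase in the ER and Golgi membrane. The liver has a further route, in which Pemt methylates phosphatidylethanolamine to phosphatidylcholine, and serine exchange by Ptdss1 and Ptdss2 turns these lipids into phosphatidylserine.

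At 8 hours of tunicamycin, Chka and Ptdss2 rose and Pcyt2 and Cept1 fell in livers of both genotypes, and Chpt1 fell in control livers. The largest of these changes was in Chka, at 4.14-fold in null livers and 3.74-fold in control livers. The difference between null and control livers did not pass the test for any of the 10 genes, with tunicamycin or with vehicle. Values called here had a Benjamini-Hochberg adjusted p under 0.05 over all 14568 genes in limma, and fold changes are on the scale of log2(intensity + 16) after quantile normalization, which understates the change of dim genes. Of these calls, only those of Chka held under all 26 alternatives of processing. Those of Pcyt2 and Cept1 were lost in both genotypes with centred array medians or with values as deposited. That of Cept1 in null livers held under 6 of the 26. Those of Ptdss2 were lost in both genotypes with the mean of its probe sets. Chpt1, not called in null livers as reported, was called there under 2 of 26 alternatives. These were array quality weights and leaving out null tunicamycin replicate 2.

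Some facts of the series bear on these genes. Before normalization, the trimmed mean intensity of null tunicamycin arrays was 295, 240 and 303 (replicates 1, 2 and 3), against 228, 255 and 232 with vehicle. In control livers it was 297, 282 and 277 with tunicamycin, against 261, 244 and 234 with vehicle. The 8 hepatocyte markers averaged a log2 level of 12.7 to 12.8 on null tunicamycin arrays, 12.7 to 12.8 on null vehicle arrays, 12.7 on every control tunicamycin array and 12.6 to 12.7 on control vehicle arrays, with none of them called in any comparison. Replicate 2 of the null tunicamycin group carried kidney transcripts: 13 of 17 kidney markers on the array exceeded every other array by over 1 (log2), and the mean of the list was 9.82 there against 5.21 to 5.59 elsewhere. Bile duct markers averaged 7.17 on that array and 5.15 to 5.77 on the others. The 5′ to 3′ ratio of the actin control probe sets, a measure of RNA integrity, averaged less in tunicamycin livers, 0.309 ± 0.116 against 0.50 ± 0.179 with vehicle in null livers and 0.328 ± 0.053 against 0.757 ± 0.323 in control livers (SD, n = 3 each). An exact two-sided permutation test gave p = 0.2 in null and p = 0.1 in control livers, and 0.1 is the smallest p that 3 arrays against 3 allow. The same ratio for Gapdh averaged 0.401 with tunicamycin against 0.372 with vehicle in null livers, and 0.556 against 0.528 in control livers. The permutation test gave p = 0.9 in each genotype. Between genotypes this Gapdh ratio was lower in null livers, with permutation p = 0.1 with tunicamycin and p = 0.5 with vehicle. The mean of 6 macrophage markers was 8.25 to 8.92 with tunicamycin against 8.99 to 9.30 with vehicle in null livers, and 8.79 to 9.27 against 9.38 to 9.77 in control livers. Of that list 1 gene, Adgre1, fell in both genotypes and the other 5 were not called. The mean of 5 stellate cell markers was 6.86 to 7.44 with tunicamycin against 7.52 to 7.90 with vehicle in control livers, and 7.11 to 7.90 against 7.23 to 7.72 in null livers, with none of the 5 called. As a check of the treatment, 6 genes of the ER stress response (Ern1, Xbp1, Hspa5, Ddit3, Atf4 and Dnajb9) rose in both genotypes on their brightest probe sets. With probe sets averaged per gene, Ern1 was called in neither genotype, and Xbp1 was not called in control livers (0.42, adjusted p = 0.114). For that brightest Ern1 probe set the null and control livers were not called apart (log2 difference 0.10 with tunicamycin, 95% interval -0.43 to 0.63, and -0.13 with vehicle, interval -0.66 to 0.40). It checks the genotype labels only if it lies in the deleted part, which is not known here. Between genotypes with tunicamycin, Dnajb9 was called lower and Xbp1 higher in null livers. The Dnajb9 call held under 10 of 26 alternatives of processing, with log2 differences between -1.36 and -0.82. That of Xbp1 held under 9 of 26, with log2 differences between 0.44 and 0.95.

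**Figure D1:**
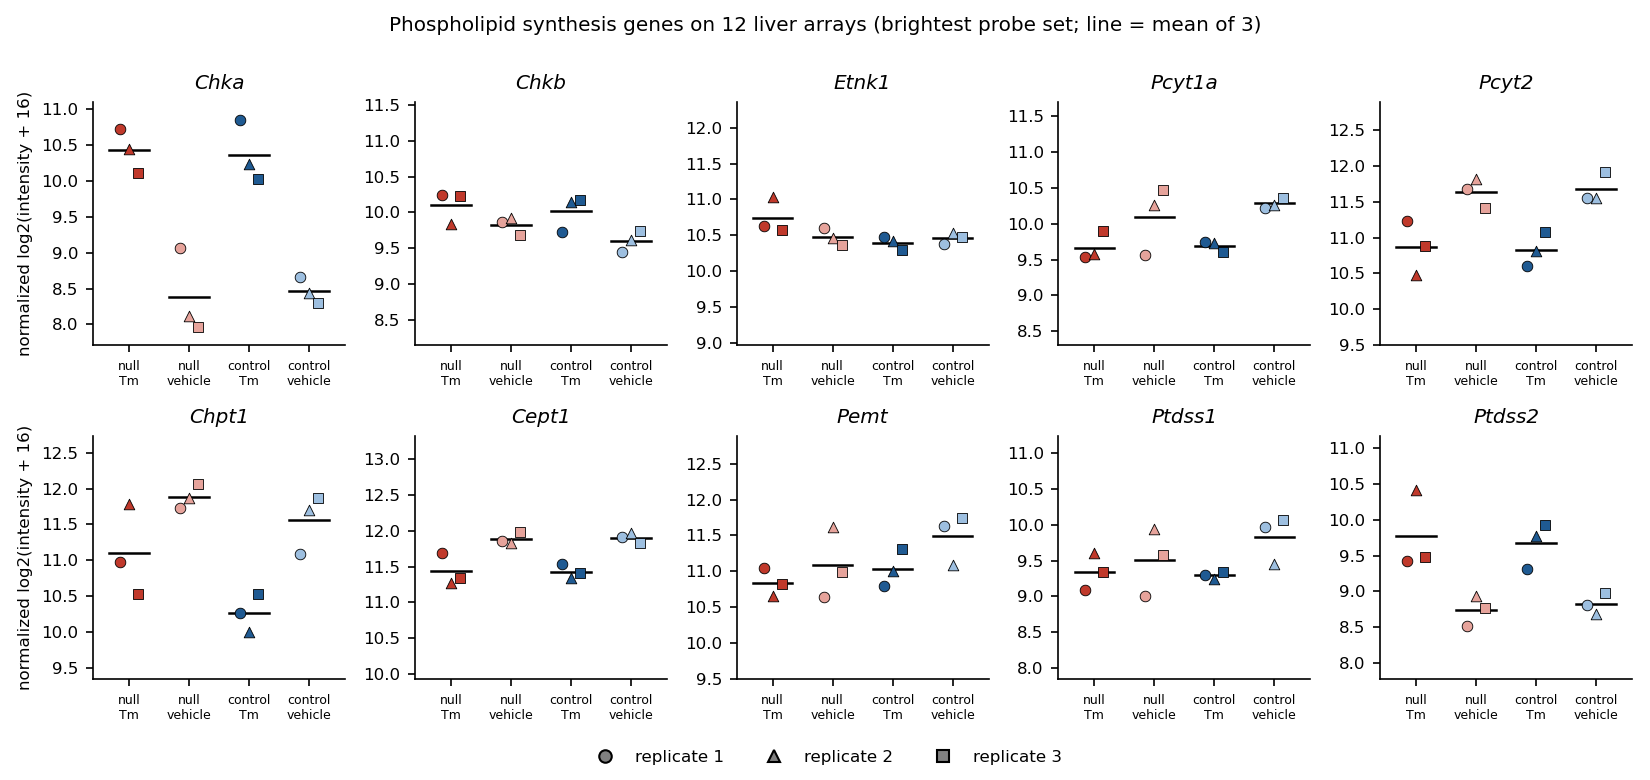
Each panel plots 1 gene as normalized log2(intensity + 16), with 4 groups of 3 arrays along the horizontal axis (Tm, tunicamycin), a symbol per replicate number and a line at the group mean. All panels span the same range of log2 values, and the tunicamycin and vehicle arrays lie farthest apart for Chka.

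Chka encodes choline kinase alpha, which phosphorylates choline in the first step of the Kennedy pathway and also accepts ethanolamine. Its deposited intensity was 1911, 1227 and 1289 in null livers with tunicamycin (replicates 1, 2 and 3), against 449, 259 and 208 in null livers with vehicle. In control livers it was 2039, 1289 and 1112 with tunicamycin, against 399, 304 and 256 with vehicle. All 6 tunicamycin arrays were above all 6 vehicle arrays. The log2 fold change was 2.05 ± 0.29 (SE) in null livers and 1.90 ± 0.29 (SE) in control livers (limma adjusted p = 0.000694 and 0.000547). Both calls held under all 26 alternatives of processing, with log2 fold changes between 1.80 and 2.39 in null and between 1.64 and 2.13 in control livers. The 2 dimmer Chka probe sets had log2 fold changes of 1.49 and 1.85 in null livers and 1.16 and 1.87 in control livers. Only the 1.87 passed the test over all 34945 probe sets (adjusted p = 0.0414).

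The promoter of Chka is shown because this gene had the largest change of the 10, with letters of the searched motifs in capitals. It covers chr19:3851523-3851822 on the plus strand of GRCm38.p6, from 250 bases before to 50 after the RefSeq start of the gene.
Chka: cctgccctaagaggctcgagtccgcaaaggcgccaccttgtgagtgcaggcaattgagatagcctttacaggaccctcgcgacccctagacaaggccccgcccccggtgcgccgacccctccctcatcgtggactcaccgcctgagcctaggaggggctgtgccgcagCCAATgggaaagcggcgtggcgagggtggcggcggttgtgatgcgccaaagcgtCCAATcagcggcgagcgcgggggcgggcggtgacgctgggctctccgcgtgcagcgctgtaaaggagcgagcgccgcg
The capitals mark 2 CCAAT boxes, 82 and 28 bases before the start. Both strands were searched for 7 motifs: the ER stress response element ERSE (CCAAT, 9 bases of any kind, then CCACG), the unfolded protein response element core TGACGTGG, the ACGTG core, the CARE element TGATGNAA, the sterol element TCACNCCAC, the E-box CACGTG and the CCAAT box. These overlap, since ERSE contains a CCAAT box and both the TGACGTGG core and the E-box contain ACGTG. Of 32851 mouse promoter windows of this length, 37.4% held a CCAAT box, 19.6% ACGTG, 7.15% the E-box, 3.97% CARE, 1.24% the sterol element, 0.676% the TGACGTGG core and 0.119% ERSE. The Chka window held none of the other 6 motifs in these letters. Its GC content was 68.7% with 33 CpG, against medians of 52.7% and 7 over all windows.

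Chkb, the second choline and ethanolamine kinase, was at 1378, 798 and 1391 in null livers with tunicamycin, against 783, 911 and 723 with vehicle. Control livers had 978, 1215 and 1247 with tunicamycin, against 699.6, 719.8 and 734 with vehicle. On the normalized scale the tunicamycin and vehicle arrays overlapped in both genotypes. Its response was a log2 fold change of 0.28 ± 0.17 (SE) in null and 0.42 ± 0.17 (SE) in control livers (limma adjusted p = 0.297 and 0.0939). The control value passed the threshold under 4 of 26 alternatives, with an adjusted p between 0.0349 and 0.273. It was 0.56 (adjusted p = 0.0419) without control tunicamycin replicate 1.

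Etnk1, the ethanolamine kinase, showed no called response either, at 0.27 ± 0.15 (SE) in null and -0.06 ± 0.15 (SE) in control livers (log2, limma adjusted p = 0.259 and 0.797). Its intensity was 1785, 1948 and 1752 in null livers with tunicamycin, against 1321, 1349 and 1154 in null livers with vehicle. It was 1619, 1474 and 1351 in control livers with tunicamycin, against 1309, 1370.0 and 1261 in control livers with vehicle. Replicate 2 of the null tunicamycin group, the array with kidney transcripts, was the highest of all 12. In null livers centred array medians or values as deposited brought the response past the threshold, and in control livers its sign turned under 4 alternatives without a call. Of the 3 kinases, Chka alone was called.

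Pcyt2, which makes CDP-ethanolamine, fell in both genotypes. Its intensity was 2704, 1258 and 2119.6 in null livers with tunicamycin, against 2827, 3507 and 2399 with vehicle. Control livers had 1747, 1956 and 2343 with tunicamycin, against 2903, 2805 and 3602 with vehicle. The treated and vehicle arrays did not overlap on the normalized scale in either genotype, though on deposited intensity replicate 1 of the null tunicamycin group lay within the null vehicle range. The response was a log2 fold change of -0.78 ± 0.21 (SE) in null livers and -0.84 ± 0.21 (SE) in control livers (limma adjusted p = 0.0246 and 0.0110). The call was lost in null livers without null tunicamycin replicate 2 (-0.58, adjusted p = 0.0749) or 3 (-0.79, 0.0637), or without null vehicle replicate 1 (-0.75, 0.0742) or 2 (-0.69, 0.0794). In control livers it was lost without control vehicle replicate 3 (-0.72, 0.0505), and in both genotypes with centred array medians (-0.64 in each, adjusted p = 0.105 in null and 0.0808 in control livers).

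Pcyt1a, whose enzyme makes CDP-choline and usually sets the pace of the choline branch, did not pass the test. It was at 842, 662 and 1108 in null livers with tunicamycin, against 633, 1164 and 1244 in null livers with vehicle. It was at 984, 898 and 802 in control livers with tunicamycin, against 1193, 1133 and 1166 in control livers with vehicle. In control livers all treated arrays lay below all vehicle arrays. In null livers vehicle replicate 1 had the lowest deposited intensity of the 6 arrays and lay among the treated arrays on the normalized scale. Its log2 fold change was -0.43 ± 0.21 (SE) in null and -0.59 ± 0.21 (SE) in control livers (limma adjusted p = 0.184 and 0.0544). Leaving out null vehicle replicate 1 brought both past the threshold, at -0.70 (adjusted p = 0.0161) in null and -0.59 (0.0101) in control livers. Leaving out null vehicle replicate 3 did so in control livers alone (adjusted p = 0.0379), where 7 of 26 alternatives passed in all.

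Chpt1, the cholinephosphotransferase that completes phosphatidylcholine, fell in control livers. Its intensity there was 1401, 1094 and 1606 with tunicamycin, against 2109.6, 3132 and 3493 with vehicle, and the arrays did not overlap. In null livers it was 2236, 3334 and 1701 with tunicamycin, against 2944, 3639 and 3818 with vehicle, and these overlapped because replicate 2 with tunicamycin lay within the vehicle range. The log2 fold change was -0.79 ± 0.30 (SE) in null and -1.29 ± 0.30 (SE) in control livers (limma adjusted p = 0.0913 and 0.00716). Replicate 2 is the array with kidney transcripts: on the normalized scale Chpt1 stood at 11.79 there and at 10.98 and 10.53 on the other null tunicamycin arrays. Without it the null value was -1.13 (adjusted p = 0.0103) and passed the test. The part of kidney RNA in this value was not tested further. The 4 Chpt1 probe sets had log2 fold changes of -0.62 to -0.79 in null livers and -1.21 to -1.41 in control livers. In the test over all probe sets, the brightest was called in control livers under 19 of 22 settings of processing. The dimmer ones were called there under 3, 2 and 2 of 22, in order of brightness. Adding the actin ratio as a covariate gave a control value of -0.68 (adjusted p = 0.217), which no longer passed.

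Cept1, which can finish either phosphatidylcholine or phosphatidylethanolamine, fell in both genotypes on the scale of the test. Its intensity was 3641, 2319 and 2906 in null livers with tunicamycin, against 3218, 3516 and 3559 with vehicle. Control livers showed 3286, 2860.2 and 2947 with tunicamycin, against 3750.1, 3765 and 3393 with vehicle. The arrays did not overlap in either genotype after normalization, but on deposited intensity replicate 1 of the null tunicamycin group lay above all 3 null vehicle arrays. In log2 terms the change was -0.45 ± 0.14 (SE) in null and -0.47 ± 0.14 (SE) in control livers (limma adjusted p = 0.0467 and 0.0266). The null call held under 6 of 26 alternatives only. It was lost on leaving out any 1 array other than null tunicamycin replicate 1, with adjusted p between 0.0573 and 0.140 over these 11 fits, and it was -0.37 (adjusted p = 0.130) without the array with kidney transcripts. The control call was lost without control tunicamycin replicate 2 (-0.43, adjusted p = 0.0952) or 3 (-0.46, 0.0705), or without control vehicle replicate 1 (-0.47, 0.0600) or 2 (-0.44, 0.0781). With values as deposited it was -0.24 in null and -0.26 in control livers (adjusted p = 0.403 and 0.317).

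The promoters of these phosphotransferases are given to set beside that of Chka. The Chpt1 window is chr10:88503921-88504220 and the Cept1 window, the first of 3 in the RefSeq table, is chr3:106547753-106548052, both on the minus strand of GRCm38.p6 and printed 5′ to 3′ along the gene.
Chpt1: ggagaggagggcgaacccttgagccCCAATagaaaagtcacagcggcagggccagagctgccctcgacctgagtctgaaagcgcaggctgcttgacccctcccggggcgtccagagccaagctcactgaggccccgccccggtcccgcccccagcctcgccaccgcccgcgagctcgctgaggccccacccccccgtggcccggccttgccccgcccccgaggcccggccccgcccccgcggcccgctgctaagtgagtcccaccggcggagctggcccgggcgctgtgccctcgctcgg
Cept1: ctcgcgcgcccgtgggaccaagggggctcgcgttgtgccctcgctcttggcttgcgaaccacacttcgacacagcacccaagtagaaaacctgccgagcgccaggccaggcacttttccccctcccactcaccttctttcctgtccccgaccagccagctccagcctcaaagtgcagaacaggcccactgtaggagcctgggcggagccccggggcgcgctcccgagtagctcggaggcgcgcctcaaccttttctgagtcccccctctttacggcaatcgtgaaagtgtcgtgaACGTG
The capitals mark a CCAAT box 225 bases before the Chpt1 start and an ACGTG core 46 bases after the Cept1 start. The remaining motifs were not present in these letters in either window. GC content was 75.3% with 29 CpG for Chpt1 and 64% with 24 CpG for Cept1. The Cept1 windows not printed also held motifs. That of chr3:106547576-106547875, which overlaps the printed one, had ACGTG 132 and 7 bases before its start. That of chr3:106543097-106543396 had a CCAAT box 2 bases before its start.

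Pemt, the methyltransferase of the liver's own route to phosphatidylcholine, was not called. It was at 2337, 1432 and 2058 in null livers with tunicamycin, against 1357, 3013 and 1792 in null livers with vehicle. It was at 1963, 2229 and 2754 in control livers with tunicamycin, against 3079, 2023 and 3195 in control livers with vehicle. Treated and vehicle arrays overlapped in both genotypes, with vehicle arrays spread over a wide range. The log2 fold change was -0.24 ± 0.25 (SE) (95% interval -0.80 to 0.31) in null and -0.45 ± 0.25 (SE) (interval -1.01 to 0.10) in control livers, with limma adjusted p = 0.569 and 0.224. Pemt was not called under any of the 26 alternatives in either genotype.

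Ptdss2, which makes phosphatidylserine from phosphatidylethanolamine, rose on its brightest probe set in both genotypes. The intensity was 782, 1206 and 825 in null livers with tunicamycin, against 303, 463 and 378 with vehicle. In control livers it was 723, 920.2 and 1039 with tunicamycin, against 444, 366 and 421 with vehicle. All 6 tunicamycin arrays lay above all 6 vehicle arrays. The log2 fold change was 1.03 ± 0.26 (SE) in null and 0.84 ± 0.26 (SE) in control livers (limma adjusted p = 0.0167 and 0.0306). The call in null livers was lost without null vehicle replicate 1 (0.93, adjusted p = 0.0684), and was kept without the array with kidney transcripts, at 0.71 (adjusted p = 0.0336). In control livers it was lost without any 1 of 5 of the 6 control arrays (all but tunicamycin replicate 1), with adjusted p between 0.0511 and 0.105 and log2 fold changes between 0.71 and 0.92.

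The 9 probe sets of Ptdss2 did not move alike. The second brightest stood at 569, 1009 and 590.5 in null livers with tunicamycin against 114, 139 and 141 with vehicle. In control livers it stood at 610.1, 734 and 756 with tunicamycin against 138, 127 and 106 with vehicle. Its log2 fold changes were 2.09 ± 0.27 and 2.15 ± 0.27 (SE), with limma adjusted p = 0.000570 in null and 0.000199 in control livers over all probe sets. The other 7 probe sets had log2 fold changes of -0.38 to 0.28 in null and -0.42 to 0.17 in control livers and were not called. With the mean of the gene's probe sets in place of the brightest, Ptdss2 was at 0.46 (adjusted p = 0.0948) in null and 0.38 (0.135) in control livers. Which transcripts the probe sets match was not analysed here. The Ptdss2 promoter, chr7:141131036-141131335 on the plus strand, is shown as that of the other gene that rose, and it held none of the 7 motifs in these letters, with a GC content of 61.7% and 23 CpG.
Ptdss2: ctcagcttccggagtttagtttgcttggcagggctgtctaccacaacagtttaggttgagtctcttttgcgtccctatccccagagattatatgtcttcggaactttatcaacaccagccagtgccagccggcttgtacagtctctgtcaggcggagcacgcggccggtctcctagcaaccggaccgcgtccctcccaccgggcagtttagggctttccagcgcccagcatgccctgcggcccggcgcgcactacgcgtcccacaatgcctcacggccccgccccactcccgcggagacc

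Ptdss1, the phosphatidylserine synthase that uses phosphatidylcholine, was not called on its brightest probe set. It was at 614, 681 and 749 in null livers with tunicamycin, against 433, 921 and 671 in null livers with vehicle. It was at 716, 637 and 660.1 in control livers with tunicamycin, against 994, 639 and 942 in control livers with vehicle. Normalized values did not overlap in control livers and overlapped in null livers. The log2 fold change was -0.16 ± 0.24 (SE) in null and -0.54 ± 0.24 (SE) in control livers (limma adjusted p = 0.697 and 0.122). With the mean of the gene's probe sets the control value was -0.62 (adjusted p = 0.0132) and passed. The second brightest probe set of the same gene fell in both, by 0.58 in null and by 0.69 in control livers on the log2 scale (adjusted p = 0.0257 and 0.00608 over all probe sets).

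**Figure D2:**
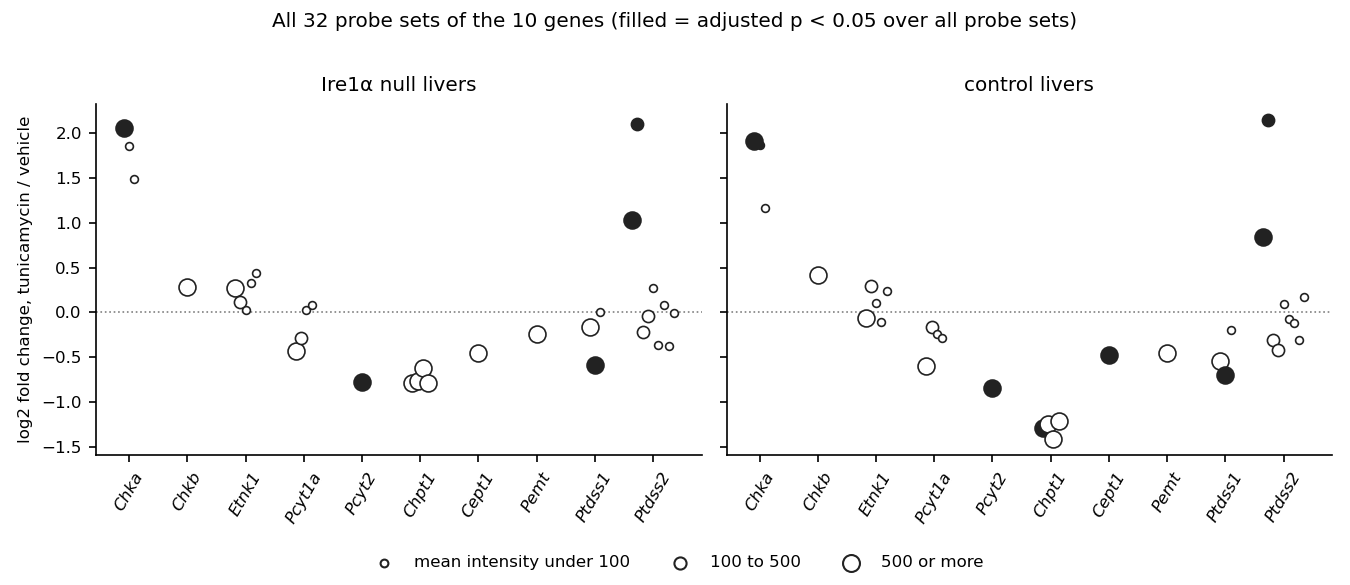
Log2 fold change of tunicamycin over vehicle for each of the 32 probe sets, in null livers (left) and control livers (right), with the symbol size giving the mean deposited intensity over 12 arrays. Probe sets of Ptdss2 lie on both sides of 0, while all 3 of Chka lie above 0 and all 4 of Chpt1 below 0.

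Counted over the 10 genes, 2 rose and 2 fell in null livers, where 7.59% of all genes rose and 9.23% fell. In control livers 2 rose and 3 fell, where 11.6% of all genes rose and 13.3% fell. The median log2 fold change of the 10 was -0.20 in null and -0.46 in control livers, beside -0.07 and -0.11 over all genes tested. These medians move with the scaling: over all genes they were 0.01 in null and -0.01 in control livers with centred array medians, and 0.08 and 0.01 with values as deposited. On either of these scales 3 of the 10 genes rose and 0 fell in null livers, and 3 rose and 1 fell in control livers. Pcyt2 and Cept1 were no longer called there, and Etnk1 (null) and Chkb (control) were. Of all 14568 genes, 1256 rose and 703 fell in null and 2100 and 1181 in control livers with centred array medians. With values as deposited 1477 rose and 512 fell in null and 2062 and 1068 in control livers. Treated and vehicle arrays did not overlap for 4 of 10 genes in null livers (33.1% of all genes) and for 7 of 10 in control livers (42.6% of all genes). At the level of probe sets, 3 rose and 2 fell of 32 in null livers, and 4 rose and 4 fell in control livers, beside 8.61% and 14.7% of all probe sets called in either direction. With the actin ratio as a covariate 2 genes, Chka and Ptdss2, were called in null livers, and 1, Chka, in control livers. The part of RNA quality and of macrophage, stellate cell and kidney RNA in these counts was not tested beyond these values.

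**Figure D3:**
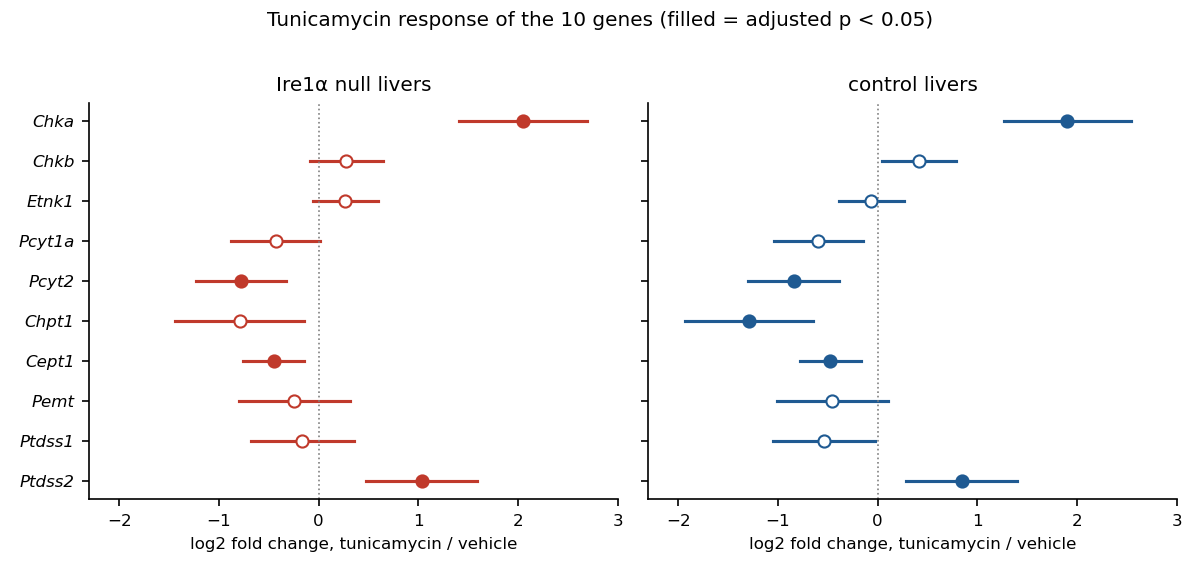
Log2 fold change of tunicamycin over vehicle for the 10 genes in null livers (left) and control livers (right), with 95% intervals from the limma fit (n = 3 arrays a group) and filled points for adjusted p under 0.05. Chka and Ptdss2 lie above 0 and Pcyt2 and Cept1 below 0 with filled points in both panels, and Chpt1 is filled in control livers alone.

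The 2 responses share no arrays, and their difference was tested as the interaction of genotype and treatment. None of the 10 genes passed it in limma, and none had an unadjusted p under 0.05, while 0.837% of all genes were called and 1203 had an unadjusted p under 0.05. The largest estimate was that of Chpt1, whose response was higher in null livers by 0.50 ± 0.42 (SE) (log2, 95% interval -0.41 to 1.41, adjusted p = 0.865). For Chka it was 0.14 ± 0.41 (SE) (interval -0.76 to 1.05) and for Ptdss2 0.19 ± 0.36 (SE) (interval -0.60 to 0.98). Without the array with kidney transcripts these were 0.15 for Chpt1, 0.14 for Chka and -0.13 for Ptdss2, none of them called. The intervals leave room for differences of either sign, so a p over the threshold does not show that the 2 genotypes responded alike.

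Between genotypes under tunicamycin, 0 of 10 genes were called in limma and 2, Chpt1 and Etnk1, had an unadjusted p under 0.05, beside 3.99% of all genes called and 2273 at an unadjusted p under 0.05. The log2 difference of null from control livers was 0.83 ± 0.30 (SE) for Chpt1 (95% interval 0.19 to 1.48, adjusted p = 0.179). Without the array with kidney transcripts it was 0.48 (adjusted p = 0.382). Etnk1 differed by 0.35 ± 0.15 (SE) (interval 0.02 to 0.68, adjusted p = 0.279) and by 0.20 (adjusted p = 0.547) without that array. Etnk1 was the 1 gene of 10 whose null and control tunicamycin arrays did not overlap, beside 21.8% of all genes. For Chka the difference was 0.06 ± 0.29 (SE) (interval -0.58 to 0.70) and for Pcyt1a -0.02 ± 0.21 (SE) (interval -0.47 to 0.42).

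Between genotypes with vehicle, 0 of 10 genes were called in limma and none had an unadjusted p under 0.05. Of all genes 0% were called there and 597 had an unadjusted p under 0.05. The lowest of the 10 log2 differences was -0.41 ± 0.25 (SE) for Pemt (interval -0.96 to 0.15) and the highest 0.33 ± 0.30 (SE) for Chpt1 (interval -0.31 to 0.98). Null and control arrays overlapped for all 10 genes, beside 8.15% of all genes that did not overlap.

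**Figure D4:**
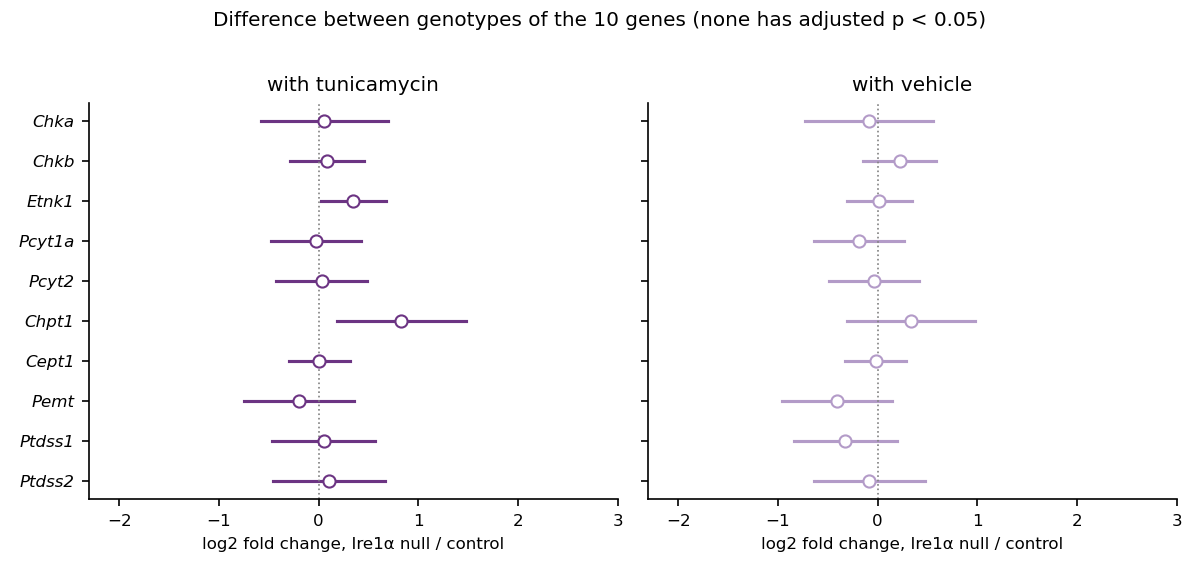
Log2 difference of null over control livers for the 10 genes, with tunicamycin (left) and with vehicle (right), with 95% intervals from the limma fit (n = 3 arrays a group). No point is filled, since none had an adjusted p under 0.05, and the intervals of Chpt1 and Etnk1 with tunicamycin lie above 0.

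The genes that feed and drain these enzymes were followed in 6 further lists, of which 48 of 52 genes were tested. In null livers 4 rose and 11 fell with tunicamycin, with a median log2 fold change of -0.08, beside 7.59% and 9.23% of all genes and a median of -0.07. With centred array medians 4 rose and 8 fell there, beside 1256 and 703 of all 14568 genes. With values as deposited 4 rose and 7 fell, beside 1477 and 512 of all genes. In control livers 5 rose and 13 fell, with a median of -0.20, beside 11.6% and 13.3% of all genes and a median of -0.11. On either of the other scales 6 rose and 9 fell in control livers. Over all genes 2100 rose and 1181 fell there with centred array medians, and 2062 and 1068 with values as deposited. Choline and ethanolamine supply held 0 that rose and 2 that fell of 5 tested in null livers, and 0 and 3 in control livers. Slc44a1, a choline transporter, fell by 0.89 in null and by 1.32 in control livers on the log2 scale (limma adjusted p = 0.000574 and 1.57e-05), and Selenoi, an ethanolaminephosphotransferase, fell by 1.17 in null and by 0.72 in control livers. The control call of Selenoi held under 23 of 26 alternatives and was lost with centred array medians (-0.53, adjusted p = 0.116). Chdh, which oxidises choline towards betaine, fell by 0.49 in control livers, a call that 7 of 25 alternatives kept. None of the 4 tested genes that supply the methyl donor of Pemt was called in either genotype.

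Among 11 genes of phosphatidate and diacylglycerol supply, 2 rose and 3 fell in null livers and 3 rose and 4 fell in control livers. The falls included Gpam, which starts glycerolipid synthesis in mitochondria, by 0.64 in null and by 1.32 in control livers. Agpat2, which makes phosphatidate, fell by 1.11 in null and by 1.29 in control livers, and Lpin2, a phosphatidate phosphatase, by 1.15 and by 1.18 (all log2). The null call of Gpam held under 22 of 26 alternatives. With the mean of its probe sets Gpam was at -0.43 in null livers (adjusted p = 0.282). Lpin2 also lost both calls with the mean of its probe sets, at -0.76 in null and -0.91 in control livers (adjusted p = 0.127 and 0.0510). Lpin3, of the same phosphatase family as Lpin2, rose by 1.40 in null and by 2.92 in control livers. Of 8 genes of the CDP-diacylglycerol branch, 1 rose and 1 fell in each genotype. Crls1, the cardiolipin synthase, rose by 0.60 in null and by 0.75 in control livers. Its null call held under 15 of 26 alternatives, with log2 fold changes of 0.45 (adjusted p = 0.142, without null tunicamycin replicate 1) to 0.82. Without the array with kidney transcripts it was 0.65 (adjusted p = 0.0552).

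Of 8 tested genes of acyl chain remodelling, 0 rose and 3 fell in each genotype. Lpgat1, a lysophospholipid acyltransferase, fell by 1.03 in null and by 1.24 in control livers. Mboat7, which acylates lysophosphatidylinositol, fell by 0.76 and by 1.07, and Lclat1, which acylates lysocardiolipin, by 0.63 and by 0.45 in null and control livers (log2). The control call of Lclat1 held under 18 of 26 alternatives and was lost with centred array medians (-0.24, adjusted p = 0.277). In null livers the call of Mboat7 held under 22 of 26, and with centred array medians it was -0.59 (adjusted p = 0.0677). Among 12 genes of breakdown and transport, 1 rose and 2 fell in each genotype. Gpcpd1, which cleaves glycerophosphocholine, fell by 1.10 in null and by 1.37 in control livers. Pla2g15, a lysosomal phospholipase, fell by 1.21 and by 0.92, while Abcb4, which moves phosphatidylcholine into bile, rose by 0.89 in null and by 0.77 in control livers. No gene of the 6 lists was called between genotypes with vehicle, or in the interaction as fitted here.

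Under tunicamycin 2 of the 48 genes were called between genotypes, beside 3.99% of all genes, a share close to that of the lists. Lpin3 was lower in null livers: its intensity was 109.6, 93.2 and 210.1 there with tunicamycin, against 433, 271 and 388 in control livers with tunicamycin, and the groups did not overlap. The log2 difference was -1.36 ± 0.25 (SE, limma adjusted p = 0.00959), and it was called under all 26 alternatives, at -1.10 to -1.60. With vehicle the Lpin3 intensity was 21.0, 46.9 and 38.6 in null and 34.4, 31.9 and 22.7 in control livers, where the groups overlapped. The interaction for Lpin3 was -1.52 ± 0.36 (SE) and missed the threshold (adjusted p = 0.0903). It passed under 2 of 25 alternatives, a pseudocount of 64 (-1.19, adjusted p = 0.0446) and leaving out null tunicamycin replicate 3 (-1.76, 0.0477). Gpam was higher in null livers by 0.61 ± 0.15 (SE, log2, adjusted p = 0.0372). That call held under 13 of 26 alternatives, and with the mean of the gene's probe sets the difference was 0.080 (adjusted p = 0.934). It was also lost without the array with kidney transcripts (0.61, adjusted p = 0.0726), whereas Chdh (0.69, 0.0244) and Lpgat1 (0.63, 0.0408) were then called.

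**Figure D5:**
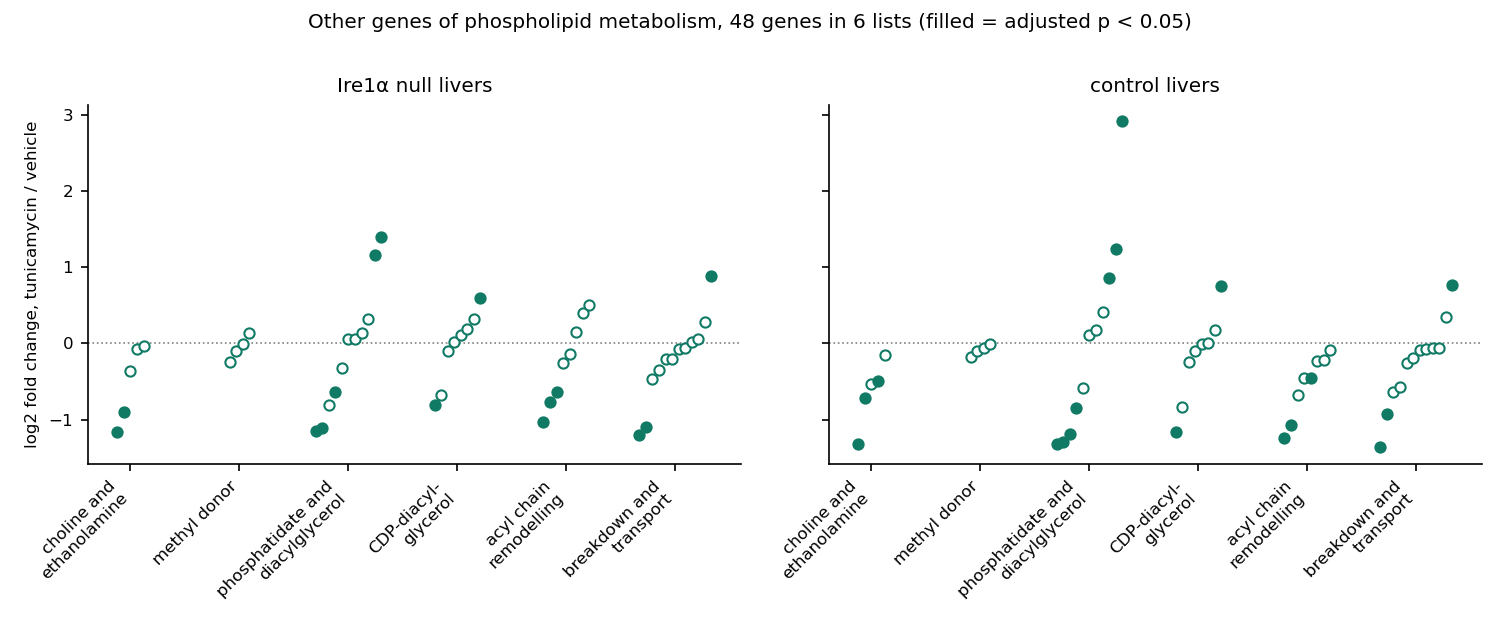
Log2 fold change of tunicamycin over vehicle for 48 genes of phospholipid metabolism in 6 lists, in null livers (left) and control livers (right), with filled points for adjusted p under 0.05. The highest point in each panel is Lpin3, at 1.40 in null and 2.92 in control livers.

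For each gene that was called, the genes with the most similar profile were taken by Pearson correlation of normalized log2 values over the 12 arrays, as a description. All such profiles share the split between tunicamycin and vehicle arrays. Chka was most like Hyou1, an ER chaperone (r = 0.988), followed by Rpl13a (0.979) and Arl14ep (0.976). Ptdss2 was most like Ring1 (0.959), Slc3a2, the heavy chain of amino acid transporters (0.954), and Ivns1abp (0.953). Pcyt2 was most like Slc25a23 (0.973), Vnn3 (0.968) and Bmp1 (0.965). Cept1 was most like Pex7, a peroxisomal import receptor (0.977), Susd1 (0.972) and Acbd5 (0.971), and Chpt1 was most like Nampt (0.980), Lmo7 (0.968) and Slc5a2 (0.968). Slc5a2 was itself one of the kidney markers, and it was called lower with tunicamycin in control livers. On the array with kidney transcripts it lay at 8.24 (log2), and the highest of the other arrays, of either treatment, was at 8.58. The part of kidney RNA in this likeness was not tested.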

How the data were processed

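Per the labels' protocols, total RNA was extracted from liver with Trizol and biotinylated cRNA was prepared for 12 Affymetrix arrays. The authors deposited 1 linear intensity per probe set and array, and the sources used here do not state the summarisation algorithm or any scaling. In R 4.3.3, with version 1.17.8 of data.table, a pseudocount of 16 was added, log2 was taken and arrays were quantile normalized by limma 3.58.1. The 30% dimmest probe sets were left out, and the probe set with the highest mean stood for each of 14568 genes. All 12 arrays entered 1 fit of 4 group means (lmFit, eBayes, 8 residual degrees of freedom), with Benjamini-Hochberg adjustment and a threshold of 0.05. A fit of 34945 single probe sets used no dim filter. The limma fit and adjustment were tested on simulated log2 values. Normalization, the dim filter and the choice of probe set were not part of that test. Named genes were the 10 members, up to 4 called genes of each pathway list in each contrast, markers, and the 3 most correlated genes of each called member. The members, lists and tests were chosen with earlier results of these data known. Promoter sequences came from a RefSeq table of GRCm38.p6, which held 8 of the 10 members by symbol. Replicate numbers were not used to pair the groups. Of 18 correlations of deviations between same-numbered arrays of different groups, 5 were over 0.1 (range -0.41 to 0.49). Control tunicamycin against control vehicle gave 0.24 for replicate 1, -0.07 for replicate 2 and 0.49 for replicate 3. These were not compared with arrays of different number, so whether same-numbered arrays share a batch was not tested. Alternatives were pseudocounts of 1 and 64, other filters, scalings, probe set rules, weights and covariates, a replicate block, and leaving out each array. Plots used Python 3.11.15 and matplotlib 3.10.9.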

Additional observations from a re-analysis of the deposited data

How the results depend on the processing

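The number of the 10 genes called was 4 in null and 5 in control livers. A 2-fold threshold left 2 in each. The actin ratio as a covariate left 2 in null and 1 in control livers, and a fit of only the groups compared left 1, Chka, in null livers. Leaving out 1 array gave 2 to 4 in null and 3 to 6 in control livers, and array quality weights gave 4 and 7. With the replicate number as a block 3 were called in null livers (Cept1 was lost, adjusted p = 0.0650) and 5 in control livers, and 0 between genotypes. The 32 probe sets gave 13 calls over all comparisons (7 up, 6 down), 8 with a pseudocount of 1, 8 with values as deposited, 5 with the actin ratio, 9 with the block and 7 to 19 on leaving out 1 array. None of the alternatives run called a difference between genotypes or an interaction for any of the 10 genes. Of the tunicamycin calls, Chka kept its call and direction under all 26 alternatives in both genotypes, and the other calls were each lost under some. Over all genes the calls ranged from 1487 to 2962 in null (2449 as reported), 1765 to 4539 in control livers (3636), 279 to 1284 between genotypes with tunicamycin (581), 0 to 1 with vehicle (0) and 14 to 225 in the interaction (122). Signs turned in 137 instances where a result was called neither as reported nor under the alternative, such as that of Etnk1 in control livers. Among called tunicamycin responses, signs turned for Ern1 and Cds2. Ern1 turned with the mean of its probe sets (-0.00419 in null and -0.0862 in control livers, the cause was not tested). Cds2 turned without _x_at and _s_at probe sets (0.85 in null and 1.63 in control livers), where another probe set represents the gene. On that probe set the difference of null from control livers with tunicamycin, not called as reported, was -1.11 for Cds2 and was called. The comparison of protein sequences that had been planned was not run. Signals over background could not be judged, since no detection calls were used here.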

Other observations

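Cds2, which makes CDP-diacylglycerol for phosphatidylinositol and is not among the 10 genes, was measured by 6 probe sets. Only the fourth brightest had a higher normalized mean with tunicamycin, and the other 5 had lower means in both genotypes. Its brightest fell by 0.81 in null and by 1.16 in control livers on the log2 scale (limma adjusted p = 0.00818 and 0.000403 over all probe sets). Intensities of the fourth brightest were 287, 373 and 321 in null livers with tunicamycin, against 132, 159 and 155 with vehicle, and 798, 763 and 650.3 in control livers with tunicamycin, against 255, 159.5 and 174 with vehicle. That probe set rose by 0.85 ± 0.20 in null and by 1.63 ± 0.20 in control livers (SE, adjusted p = 0.0192 and 0.000150). With tunicamycin it was lower in null than in control livers, at a log2 difference of -1.11 ± 0.20 (adjusted p = 0.00974), and all 3 null arrays lay below all 3 control arrays, while the other 5 probe sets were not called between genotypes. Which Cds2 transcripts each probe set matches was not analysed here.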
